A study of Mus musculus with 288 samples.

Results

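The response of mouse macrophages to Sendai virus (SeV) was followed in wells whose titles name SeV, and each was set against the unstimulated (NoStim) well of the same plate and the same time. These were 24 SeV wells from plate column 2 and 24 NoStim wells from plate column 1, 48 of the 288 wells of the series. The main comparison used the 30 wells of 60 to 180 min, 15 a side, and the course used all 8 times (15, 30, 45, 60, 90, 120, 150 and 180 min). The mice were C57BL/6 animals aged 12 weeks, and their marrow was grown into macrophages over 7 days with M-CSF, the macrophage growth factor. There were 3 plates: the DMSO plate received the solvent, the dCA plate dCA at 100 nM for 24 h and the BRD-6989 plate BRD-6989 at 1 µM for 24 h before the stimulus. Both compounds inhibit CDK8, a kinase that works with the Mediator complex at promoters, and the series asked what inhibiting it does to gene expression during innate immune activation. Gene expression was measured by 3' digital gene expression with unique molecular identifiers (UMIs), which count each captured RNA molecule once, and transcription factor activity by a pooled set of 58 reporters (TF-seq) in the same wells. The amount of virus is not given in the sources used here.

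Each combination of plate, stimulus and time was a single well, so wells of different times and plates stood in as replicates. The labels name no separate cultures or animals, and p-values measure only the spread between these wells. Stimulus was also plate column, time was plate row and pretreatment was the plate itself, so each cannot be told apart from its position. In these bulk samples, fewer responding cells and less RNA per cell cannot be told apart.

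SeV is a paramyxovirus of mice whose RNA is detected in the cytosol by RIG-I (Ddx58), which signals through MAVS to the kinases TBK1 and IKKε and on to the transcription factors IRF3 and NF-κB. These factors switch on the interferon-β gene Ifnb1 and a set of antiviral genes and chemokines directly. Secreted interferon then acts through its receptor on interferon-stimulated response elements, which raises a wider group of antiviral genes.

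The promoters of 4 genes that rose with SeV are shown because they hold a match to the interferon or the NF-κB motif and rank highest by p among such genes. Each is the 250 bases before the annotated start, 5′ to 3′ on the gene's strand, from RefSeq for GRCm38.p6, with motif matches in capitals. The start used for Ifit2 lies inside the gene span given below (chr19:34550550-34576534), so its window partly overlaps that span. Rsad2 lies at chr12:26456453-26456702 (minus strand), Ifit1 at chr19:34640639-34640888 (plus strand), Ifit2 at chr19:34550444-34550693 (plus strand) and Irf1 at chr11:53769764-53770013 (plus strand).
Rsad2: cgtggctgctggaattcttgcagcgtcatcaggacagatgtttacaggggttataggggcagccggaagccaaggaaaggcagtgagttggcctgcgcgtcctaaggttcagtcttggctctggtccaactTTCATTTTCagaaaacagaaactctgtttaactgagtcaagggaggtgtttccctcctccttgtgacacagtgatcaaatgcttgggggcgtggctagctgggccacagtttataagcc
Ifit1: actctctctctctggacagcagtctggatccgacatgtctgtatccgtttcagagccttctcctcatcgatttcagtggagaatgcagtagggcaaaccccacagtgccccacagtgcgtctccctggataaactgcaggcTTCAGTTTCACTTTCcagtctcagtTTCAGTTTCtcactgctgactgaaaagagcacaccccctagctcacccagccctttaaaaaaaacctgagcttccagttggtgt
Ifit2: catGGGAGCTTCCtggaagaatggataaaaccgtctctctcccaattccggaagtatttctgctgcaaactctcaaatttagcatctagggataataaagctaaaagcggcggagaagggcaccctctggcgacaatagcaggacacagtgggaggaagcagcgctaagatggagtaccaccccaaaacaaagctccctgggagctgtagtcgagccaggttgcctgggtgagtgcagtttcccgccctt
Irf1: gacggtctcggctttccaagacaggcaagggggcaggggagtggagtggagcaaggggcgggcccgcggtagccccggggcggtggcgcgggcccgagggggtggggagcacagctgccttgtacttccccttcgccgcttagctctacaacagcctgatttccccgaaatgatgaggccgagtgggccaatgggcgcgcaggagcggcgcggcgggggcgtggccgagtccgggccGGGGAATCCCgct

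The interferon motif searched was GAAANNGAA on both strands, and the NF-κB motif was the usual consensus, also on both strands. Rsad2 held 1 interferon match 119 bases before its start. Ifit1 held 3 interferon matches, 109, 103 and 84 bases before its start, of which the first 2 overlap. Ifit2 held 1 NF-κB match 247 bases before the first of its 2 listed starts, and Irf1 held an NF-κB match 13 bases before the first of its 2 listed starts that reads on both strands. In windows of 300 bases, 8.56% of the 32851 promoters of the table held the interferon motif and 8.46% the NF-κB motif. Among promoters of genes tested here the shares were 7.52% and 10.4%. A match describes letters only. Of the other genes that rose, Ifnb1 held 1 NF-κB match and Cmpk2 held neither motif, and Ccl4, Ccl7 and Bmp2 were not matched in the table.

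The wells at 60 to 180 min held 24206 to 62376 UMIs after leaving out Rn45s, the ribosomal RNA precursor, which took 39.3 to 60.3% of all UMIs. The UMI total without Rn45s was 38860 ± 8742 in NoStim and 40760 ± 9675 in SeV wells (mean ± SD, n = 15 a side), a difference of 1902 ± 14860 over the 15 plate and time pairs (exact 2-sided permutation of pair signs, p = 0.622). All 18 macrophage markers in the file were detected, and none passed an adjusted p under 0.05 between SeV and NoStim wells by edgeR. Their summed level was 17430 to 22830 CPM in SeV wells and 14670 to 21240 CPM in NoStim wells. In these marker sums CPM is the UMI count scaled to a library of 1e+06 UMIs without Rn45s. The CPM of single genes given below also use TMM factors for the library sizes. Markers of natural killer cells (4 of 4), red cell precursors (5 of 5) and mast cells or basophils (3 of 3) were at 0 in these 30 wells, and those of T cells, B cells, neutrophils, fibroblasts, dendritic cells and endothelial cells summed to at most 162 CPM a list in any well. No pair of wells held identical counts.

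SeV raised a short list of antiviral genes, chemokines and the interferon-β gene between 60 and 180 min. At an adjusted p under 0.05, 10 of 7981 genes tested passed (0.125%), 9 higher and 1 lower by edgeR's quasi-likelihood test with plate and time as blocks and Benjamini-Hochberg adjustment. An unadjusted p under 0.05 was found for 495 genes. The antiviral effectors Rsad2, Ifit1, Ifit2 and Cmpk2 rose, as did the transcription factor gene Irf1, Ifnb1, the chemokines Ccl4 and Ccl7, and Bmp2, a secreted bone morphogenetic protein. The only gene that fell was Usp8, which encodes a deubiquitinase of endosomal sorting. Of these calls, Ccl4 and Ifit1 passed in all 50 alternative settings and Rsad2 in 49 of 50, whereas Usp8 passed in 19 and Bmp2 in 20. Among the 50, leaving out 60 min and using 90 to 180 min are the same fit and are both counted.

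Rsad2 encodes viperin, an enzyme that makes a chain-terminating nucleotide against viral RNA synthesis, and lies at chr12:26442743-26456452. On the DMSO plate the SeV wells held 9, 33, 87, 288 and 514 Rsad2 UMIs at 60, 90, 120, 150 and 180 min, and the NoStim wells 6, 14, 13, 11 and 31. On the dCA plate the SeV wells held 7, 12, 44, 149 and 351 UMIs and the NoStim wells 18, 27, 17, 31 and 17. On the BRD-6989 plate the SeV wells held 2, 12, 25, 152 and 346 UMIs and the NoStim wells 15, 8, 11, 0 and 3. The 150 and 180 min SeV wells of all 3 plates were far above every NoStim well, whereas at 60 and 90 min the groups overlapped, and the dCA wells at both times and the BRD-6989 well at 60 min were lower with SeV than without. Over 60 to 180 min the lowest, median and highest counts were 2, 44 and 514 UMIs with SeV and 0, 14 and 31 UMIs without. Rsad2 was 4.19-fold higher with SeV (log2 difference 2.07 ± 0.18 SE, edgeR adjusted p = 4.73e-26) and was higher in 12 of 15 pairs, including 9 of 9 pairs at 120 to 180 min. Counting total reads in place of UMIs gave an adjusted p of 0.0907. The fitted fold rests on 1 SeV effect for all times from 60 to 180 min. At single times the log2 differences ran from -0.95 at 60 min to 4.95 at 180 min, and the UMI sums were 2031 with SeV and 222 without. Folds of other genes and of single plates over 60 to 180 min were fitted with 1 effect over these times as well.

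Ifit1 and Ifit2 encode neighbouring interferon-induced proteins that bind foreign RNA (Ifit1 at chr19:34640889-34650009, Ifit2 at chr19:34550550-34576534). The SeV wells held 0, 3, 25, 79 and 99 Ifit1 UMIs on the DMSO plate at 60, 90, 120, 150 and 180 min, 5, 10, 14, 63 and 64 on the dCA plate and 1, 6, 12, 47 and 110 on the BRD-6989 plate. No NoStim well of these times held more than 7. The groups did not overlap at 120 to 180 min on the CPM scale, with 361.5 CPM as the lowest SeV well and 186.8 CPM as the highest NoStim well. Ifit1 was 8.60-fold higher with SeV (log2 difference 3.10 ± 0.34 SE, edgeR adjusted p = 3.08e-16; higher in 14 of 15 pairs). Ifit2 ranged from 3 to 92 UMIs with SeV (median 21) and from 0 to 24 without (median 6), and these ranges overlapped. It was 2.85-fold higher (log2 1.51 ± 0.29 SE, edgeR adjusted p = 5.24e-04; higher in 13 of 15 pairs), but did not pass without 180 min (adjusted p = 0.320), without the dCA plate (0.0959) or without the BRD-6989 plate (0.0613). Cmpk2, a mitochondrial nucleotide kinase next to Rsad2 on chromosome 12 (chr12:26469117-26479837), ranged from 0 to 85 UMIs with SeV and from 0 to 13 without, and was 3.88-fold higher (edgeR adjusted p = 0.0209). The Cmpk2 call was lost in 20 of 50 alternative settings, among them those without the DMSO 180 min SeV well (adjusted p = 0.218), without 180 min (adjusted p = 0.83) and with DESeq2 (adjusted p = 0.312).

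Ifnb1, the gene of interferon-β (chr4:88522025-88522794), had no UMI in any of the 24 NoStim wells and none in SeV wells before 120 min. At 120, 150 and 180 min the SeV wells held 7, 2 and 9 UMIs on the DMSO plate, 4, 0 and 4 on the dCA plate and 3, 6 and 6 on the BRD-6989 plate. SeV wells thus held 41 UMIs in all, and 8 of the 9 wells at 120 to 180 min had at least 1. Against a floor of 3 counts over the NoStim group, Ifnb1 was at least 13-fold higher at 60 to 180 min (edgeR adjusted p = 0.0209). This call was lost in 15 of the alternative settings, among them without 120 min (adjusted p = 0.267), without 150 min (0.127), without 180 min (0.439), without any 1 of the plates (0.137 to 0.566) and with each plate and time pair as a block (0.0853). Beyond these, Ifnb1 was not among the genes called with DESeq2. Irf1, a transcription factor that binds interferon response elements (chr11:53770014-53778374), held 3, 8, 7, 20 and 15 UMIs in the DMSO SeV wells, 0, 0, 7, 10 and 20 in the dCA SeV wells and 0, 4, 4, 25 and 15 in the BRD-6989 SeV wells from 60 to 180 min. The NoStim wells held 0 to 9 with a median of 0, so the groups overlapped. Irf1 was 5.84-fold higher with SeV (log2 2.55 ± 0.57 SE, edgeR adjusted p = 0.00992; higher in 12 of 15 pairs), and the call was lost without 120 min (adjusted p = 0.178), without 150 min (0.325), without 180 min (0.199), without the DMSO plate (0.857), without the dCA plate (0.0959) or without the dCA SeV well at 180 min (0.0763).

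Among the chemokines, Ccl4 and Ccl7 rose. Ccl4 encodes MIP-1β, which attracts monocytes and T cells (chr11:83648624-83664683). Its SeV wells held 5, 36, 57, 81 and 122 UMIs on the DMSO plate at 60, 90, 120, 150 and 180 min, 6, 20, 30, 40 and 98 on the dCA plate and 18, 21, 42, 72 and 120 on the BRD-6989 plate. The NoStim wells ranged from 2 to 23 UMIs with a median of 12. At 120 to 180 min the lowest SeV well (774.6 CPM) lay above the highest NoStim well (591 CPM), while at 60 min 2 of the 3 SeV wells lay below all 3 NoStim wells. Ccl4 was 3.34-fold higher with SeV over 60 to 180 min (log2 1.74 ± 0.22 SE, edgeR adjusted p = 1.69e-11; higher in 13 of 15 pairs). Ccl7, which encodes the monocyte attractant MCP-3 (chr11:82045712-82047525), ranged from 16 to 127 UMIs with SeV (median 36) and from 6 to 47 without (median 21). It was 1.93-fold higher (log2 0.95 ± 0.20 SE, edgeR adjusted p = 0.00325; higher in 12 of 15 pairs), and it did not pass without 180 min (log2 0.62, adjusted p = 0.754), without 150 min (0.102), without the BRD-6989 plate (0.424) or without the BRD-6989 NoStim well at 180 min (0.0525).

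**Figure D1:**
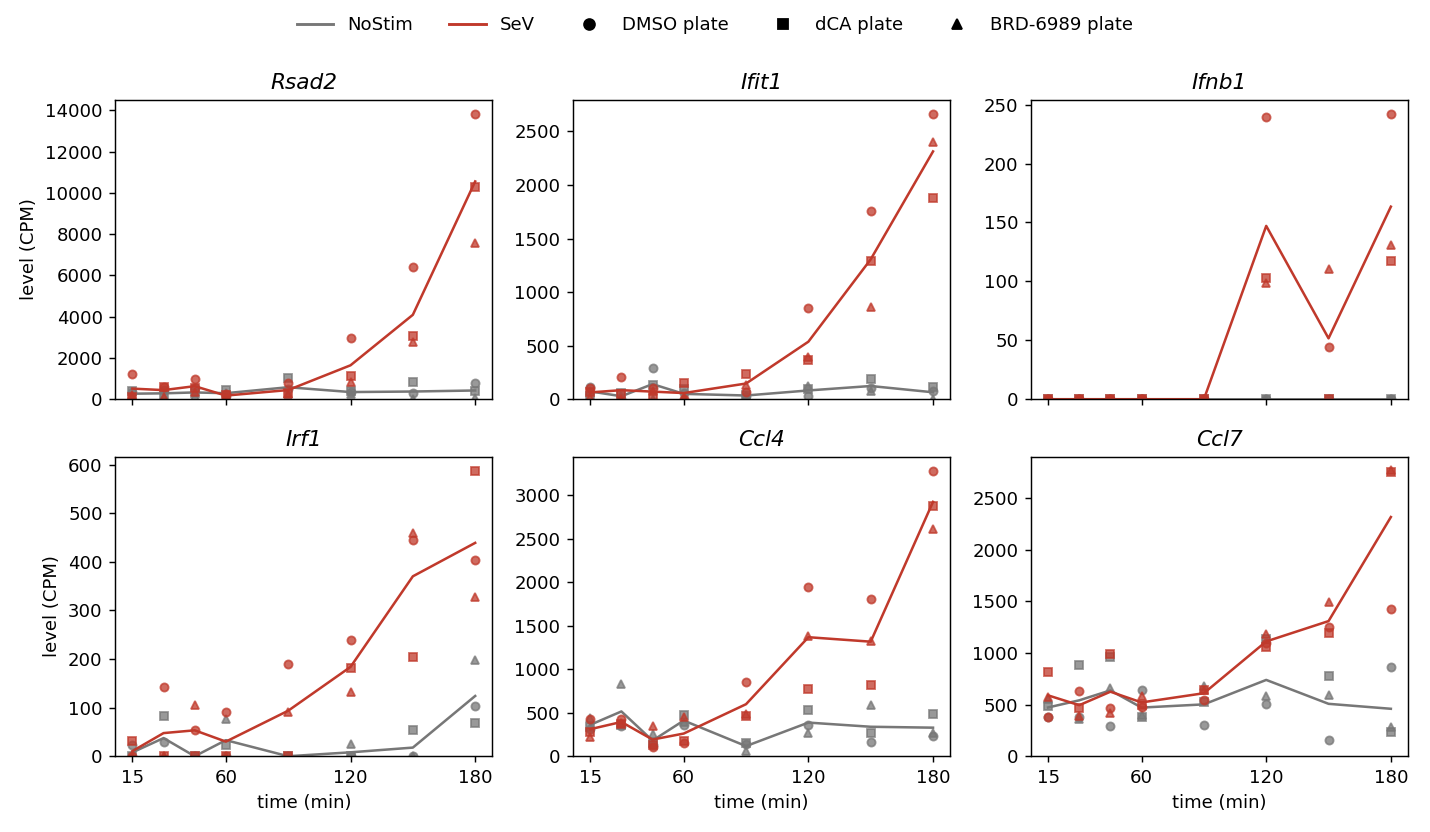
Level (CPM, linear axis from 0) of Rsad2, Ifit1, Ifnb1, Irf1, Ccl4 and Ccl7 against time (min) in SeV and NoStim wells, each symbol 1 well of the DMSO, dCA or BRD-6989 plate and each line the mean of the 3 plates. From 120 min on every SeV line lies above the NoStim line, and Rsad2 reaches 13820, 10300 and 7548 CPM in the 180 min SeV wells of the DMSO, dCA and BRD-6989 plates.

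Bmp2 (chr2:133552159-133562896) held 53 UMIs over the 15 SeV wells and 4 over the NoStim wells, all 4 in the BRD-6989 well at 180 min, and was higher in 11 of 15 pairs (log2 3.60 ± 0.89 SE, edgeR adjusted p = 0.0410). Of those 53 UMIs, 16 were in the DMSO well at 150 min, and without that well the adjusted p was 0.0912. In 29 of the 50 settings the Bmp2 call was lost, with adjusted p up to 0.857 without the DMSO plate and 0.126 with each plate and time pair as a block. Beyond these, Bmp2 was not among the genes called with DESeq2. Usp8 (chr2:126707201-126759314) held 70, 74 and 73 UMIs in the NoStim wells of the DMSO, dCA and BRD-6989 plates at 180 min and 10, 0 and 5 in the SeV wells of that time. At the earlier times of the comparison the NoStim wells held 4 to 30 and the SeV wells 2 to 25. The 3 NoStim wells at 180 min thus stood above all others. Usp8 was lower with SeV by a log2 difference of -1.19 ± 0.29 SE (edgeR adjusted p = 0.0410), and without 180 min the difference was -0.61 (adjusted p = 0.955).

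Of the 49 antiviral and interferon-induced effectors tested, 4 rose and none fell, with a median log2 difference of 0.506 against -0.0026 over all genes tested. Over all genes, 10 of 7981 passed (0.125%). The list's largest differences that missed the threshold were Mx1, a GTPase against RNA viruses (126 UMIs with SeV, 22 without; log2 2.39, edgeR adjusted p = 0.0777), and the guanylate-binding protein gene Gbp3 (98 against 18 UMIs; log2 2.34, adjusted p = 0.112), chosen here after their values were seen. Mx1 did pass with DESeq2, without the time block (plate kept) and with the Rn45s share as a covariate. Isg15, a ubiquitin-like modifier, gave 112 against 67 UMIs (log2 0.70, adjusted p = 0.919) and Ifit3 a log2 difference of 0.34 (adjusted p = 0.999). Of the 13 interferon ligand, receptor and signalling genes tested, 1 rose (Ifnb1) and none fell (median 0.255); Stat2, a transcription factor of interferon signalling, gave 56 UMIs with SeV and 26 without (adjusted p = 0.928).

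The list of RNA sensors and adaptors also held Irf transcription factors. Of its 21 genes tested, 1 rose (Irf1, such a factor) and none fell, with a median log2 difference of 0.45, where 0.125% of all genes tested passed. The virus sensor genes themselves did not pass: Ddx58 (RIG-I) gave 139 UMIs with SeV and 127 without (log2 0.45, edgeR adjusted p = 0.989), Ifih1 (MDA5) 88 and 43 (log2 1.06, adjusted p = 0.823) and Dhx58 (LGP2) a log2 difference of 0.15 (adjusted p = 0.999). Irf7, the interferon-amplifying factor, gave 130 and 77 UMIs (log2 0.44, adjusted p = 0.999). At this depth these differences could not be told apart from the spread between wells. With total read counts the direction of Ifit3 and Irf7 turned (-0.07 and -0.04).

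Of 16 chemokine genes tested, 2 rose and none fell, where 0.125% of all genes tested passed. The median log2 difference of the list was 0.887. Cxcl2, a neutrophil attractant, gave 211 UMIs with SeV and 81 without (log2 1.24, edgeR adjusted p = 0.253), Cxcl10, the interferon-induced T cell attractant, 748 and 426 (log2 0.55, adjusted p = 0.480), and Ccl5 47 and 8 (log2 2.37, adjusted p = 0.481). Ccl3 gave 155 and 114 (log2 0.40, adjusted p = 0.999). None of the 13 inflammatory cytokines and mediators passed (median 0.39). Tnf gave a log2 difference of -0.65 (adjusted p = 0.954), and Il1b and Il6 were below the filter of a mean of 0.5 UMIs a well. Among 22 NF-κB factors and feedback genes none passed (median 0.145), with Nfkbia, the inhibitor IκBα and itself an NF-κB target, closest by p at 340 against 171 UMIs (log2 0.96, adjusted p = 0.178). Without 60 min, that is over 90 to 180 min, Nfkbia (log2 1.28, edgeR adjusted p = 0.0115) and Cxcl10 (0.97, 9.84e-04) did pass, and Cxcl2 passed with the Rn45s share as a covariate (1.59, 0.046). None passed among 22 immediate early and MAP kinase feedback genes (median 0.0665), 16 stress response genes (0.236), 13 antigen processing genes (0.307) and 21 cholesterol synthesis genes (0.0628).

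**Figure D2:**
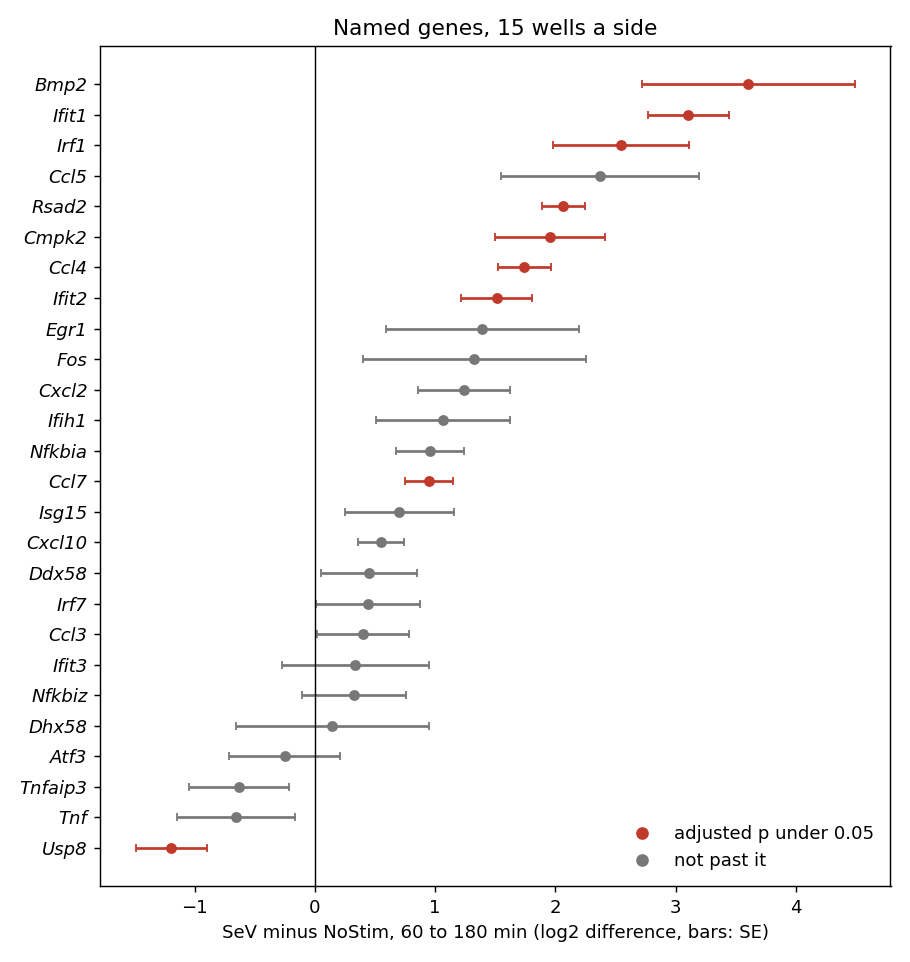
Log2 difference between SeV and NoStim wells at 60 to 180 min (points, with bars for the SE, 15 wells a side) for the fixed set of named genes and the genes with the largest called rises and falls, except Ifnb1, whose NoStim wells were all at 0. The red points passed at an adjusted p under 0.05, from Bmp2 at 3.60 to Usp8 at -1.19; the grey points, from Ccl5 at 2.37 to Tnf at -0.65, did not.

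The effect of SeV on Rsad2, Ifit1, Ccl4 and Ccl7 grew with time. None of 7931 genes passed with the 18 wells of 15 to 45 min pooled (0% called by edgeR, with 382 genes at an unadjusted p under 0.05; DESeq2 called 5). At those times Rsad2 had 95 UMIs over 9 NoStim wells and 191 over 9 SeV wells (log2 0.78 ± 0.35 SE, adjusted p = 0.932), with SeV higher in 7 of 9 pairs, and 110 of the 191 were in the 3 wells of the DMSO plate. Ifit1 (26 and 27 UMIs) and Ccl4 (118 and 113) had nearly the same sum in NoStim and SeV wells.

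Over all 8 times the SeV effect changed with time in 8 of 7980 genes, or 0.1% (edgeR test of the interaction of SeV with time in hours). It grew by 1.64 ± 0.19 log2 units per hour for Rsad2 (adjusted p = 6.22e-12), by 1.96 ± 0.32 for Ifit1 (2.04e-05), by 1.31 ± 0.19 for Ccl4 (3.71e-07) and by 0.76 ± 0.17 for Ccl7 (0.0205). These 4 are 40% of the genes called at 60 to 180 min and 50% of those called here. The remaining calls, Sirt6 (rising) and Mastl, Snx29 and Rbm15b (falling), had at most 11 UMIs in any well and 0 in most, and no pattern over time could be read from them well by well. Ccl4 passed in all 21 alternative settings of this test and Rsad2 in 20, while Ccl7 passed in 14 and Sirt6 in 7 of 15. Without 180 min the adjusted p was 0.150 for Ifit1 and 0.532 for Ccl7, and the Ccl7 call was also lost without 30 min (0.0658), without 150 min (0.0707), without the dCA plate (0.308) and without the BRD-6989 plate (0.349). The count was 13 without 180 min, 4 without the DMSO plate and 3 without the dCA plate.

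A separate effect was also fitted at each time, with 3 wells a side, a test added after the data were seen. Ifit2, Irf1, Ifnb1, Cmpk2 and Bmp2 passed at none of the 8 times. Rsad2 differed by -0.95 ± 0.40 at 60 min (edgeR adjusted p = 0.797) and -0.41 ± 0.35 at 90 min (0.800), then by 2.10 ± 0.35 at 120 min (9.36e-06), 3.57 ± 0.35 at 150 min (1.26e-20) and 4.95 ± 0.36 at 180 min (2.83e-39). Rsad2 was the only gene called at 120 min, 1 of 7980 or 0.0125%. Ccl4 reached 2.34 ± 0.57 at 90 min (adjusted p = 0.0900) and 1.80 ± 0.48 at 120 min (0.269), and passed at 150 min (1.95 ± 0.48, 0.0474) and at 180 min (3.16 ± 0.49, 1.91e-07). Ifit1 passed at 150 min (3.36 ± 0.71, 0.00332) and 180 min (5.33 ± 0.78, 2.31e-08). Ccl7 (2.27 ± 0.44), Cxcl10 (1.69 ± 0.40) and Parp14, an interferon-induced ADP-ribosyltransferase (3.59 ± 0.80), passed at 180 min only among these 8 times, with edgeR adjusted p of 2.11e-04, 0.0134 and 0.00607. The test of the change with time in hours, over all 8 times, called Ccl7 but not Cxcl10 or Parp14. Whether the effect at 180 min alone differed from that at the other times was not tested.

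At 15 min 4 of 7980 genes passed (0.0501%), all lower (Calm2, Incenp, Ncl and Zeb2), at 45 min 1 passed (0.0125%), Ncl, which was higher (edgeR adjusted p = 0.00309), and at 60 min 2 passed (0.0251%), both lower. Some of the genes called at single times turned direction between times, among them Ncl, Malat1, Lars2 and Tpt1. At 150 min 8 of 7980 genes passed (0.1%), all higher, and at 180 min 16 passed (0.201%), 7 higher and 9 lower. Malat1, a nuclear noncoding RNA, was higher at 150 min (1.43 ± 0.17, edgeR adjusted p = 2.33e-13) and lower at 180 min (-0.76 ± 0.17, 0.00607). Lars2, the mitochondrial leucyl-tRNA synthetase, was lower at 60 min (-0.41 ± 0.09), higher at 150 min (0.48 ± 0.09) and lower at 180 min (-0.85 ± 0.09). Tpt1, a translationally controlled protein, did the same, at -1.10 ± 0.13, 0.74 ± 0.13 and -0.72 ± 0.13. Each time is 1 row of each plate with 1 well a side, so a gene's difference at 1 time cannot be told apart from that of the wells in that position.

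The size of the response in each plate was then compared. Within the DMSO plate 3 of 7981 genes passed (0.0376%), namely Rsad2 (7.24-fold, log2 2.86 ± 0.27 SE, edgeR adjusted p = 4.63e-23), Ifit1 (11.3-fold, 3.50 ± 0.59, 1.10e-05) and Ccl4 (5.28-fold, 2.40 ± 0.38, 1.44e-06). The same genes passed within the BRD-6989 plate, also 0.0376%: Rsad2 (4.94-fold, 2.30 ± 0.29, 1.58e-11), Ifit1 (11.1-fold, 3.47 ± 0.60, 3.61e-05) and Ccl4 (3.33-fold, 1.73 ± 0.37, 0.00544). Within the dCA plate no gene passed in edgeR (0%; 540 at an unadjusted p under 0.05, and 96 called by DESeq2), with Ifit1 at 5.53-fold (2.47 ± 0.55, 0.0595), Rsad2 at 2.10-fold (1.07 ± 0.26, 0.137) and Ccl4 at 2.18-fold (1.12 ± 0.37, 0.738). DESeq2 called 84 genes within the DMSO plate and 92 within the BRD-6989 plate, and total read counts gave 0 within each plate.

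These counts moved with single times. Without 180 min only 1 gene passed within the DMSO plate, with Ifit1 (adjusted p = 0.682) and Ccl4 (0.106) lost, and none within the BRD-6989 plate, with Rsad2 at a log2 difference of 1.23 (edgeR adjusted p = 1). Within the BRD-6989 plate 5 genes passed without 90 min and 6 without 150 min, and Ccl4 was lost without 120 min (adjusted p = 0.223). Within the dCA plate 4 genes passed without 60 min, among them Rsad2 (1.59, adjusted p = 1.3e-05), Ifit1 (2.95, 4.16e-04) and Ccl4 (1.65, 0.0452). Without 90 min 2 passed there, Rsad2 (1.87, 1.25e-08) and Ifit1 (2.47, 0.0284), and without the time block the same genes passed, Rsad2 at 2.30. The dCA wells of 60 and 90 min are those in which Rsad2 was lower with SeV.

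**Figure D3:**
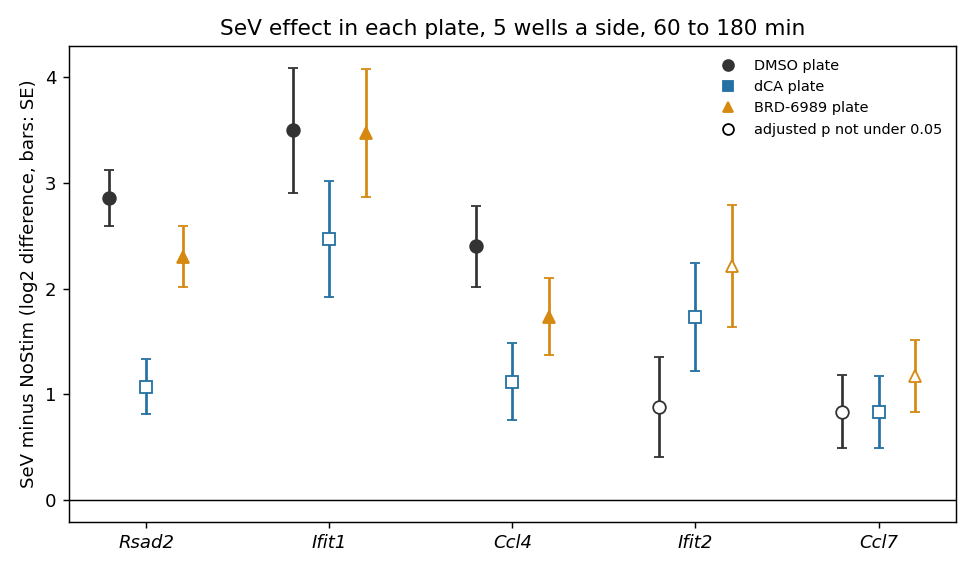
Log2 difference between SeV and NoStim wells at 60 to 180 min within each plate (bars: SE, 5 wells a side) for Rsad2, Ifit1, Ccl4, Ifit2 and Ccl7. Filled symbols passed at an adjusted p under 0.05; Rsad2 stands at 2.86, 1.07 and 2.30 on the DMSO, dCA and BRD-6989 plates.

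A direct test of the difference between plates called Rsad2 only, 1 of 7981 genes or 0.0125% (edgeR with 2 degrees of freedom, adjusted p = 0.0132; 516 genes at an unadjusted p under 0.05). The SeV effect on Rsad2 was smaller on the dCA plate than on the DMSO plate by a log2 difference of -1.78 ± 0.35 SE (adjusted p = 0.00477), and this pairwise call was lost in 8 of 14 alternative settings, among them without 60 min (-1.61, adjusted p = 0.269), without the time block (-1.20, 0.474) and with DESeq2 (-1.82, 1). On the BRD-6989 plate it differed from DMSO by -0.55 (adjusted p = 0.996). The dCA NoStim wells held 17 to 31 Rsad2 UMIs at 60 to 180 min, against 6 to 31 on the DMSO plate and 0 to 15 on the BRD-6989 plate. The call of the test with 2 degrees of freedom was lost with DESeq2 (adjusted p = 1), with a filter of 1 UMI a well (0.776), with Rn45s kept in the library sizes (0.114), without the time block, with total read counts (0.748), and without 90 min (0.646), 150 min (0.841) or 180 min (0.288). For Ifit1 the dCA minus DMSO difference was -1.03 ± 0.81 (adjusted p = 0.858) and for Ccl4 -1.28 ± 0.52 (adjusted p = 0.642). With dCA at 100 nM and BRD-6989 at 1 µM the doses differ, and the plates are given side by side without a comparison of the compounds.

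Poly(I:C), a synthetic double-stranded RNA, and bacterial LPS were given to wells of the same plates and times, and SeV was compared with each directly, 15 wells a side at 60 to 180 min. Several genes that rose with SeV were lower with SeV than with either of these stimuli. Against Poly(I:C), 171 of 8191 genes passed (2.09%), 71 higher and 100 lower with SeV, a split that turned to 96 higher and 66 lower with RLE factors in place of TMM, which moved the median of all genes from -0.02 to 0.12. The median Rn45s share was 39.2% in Poly(I:C) wells and 49.3% in SeV wells, and with it as a covariate 33 genes passed. Without 150 min 64 genes passed, without 120 min 80, and without the DMSO, dCA or BRD-6989 plate 80, 71 and 70.

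Of the 9 genes raised by SeV, 4 were lower with SeV than with Poly(I:C). Rsad2 had a median of 44 UMIs with SeV and 114 with Poly(I:C) (log2 -0.85 ± 0.09 SE, edgeR adjusted p = 7.44e-20). Ccl7 differed by -0.96 ± 0.13 (2.87e-10), Ccl4 by -0.68 ± 0.14 (2.49e-04) and Cmpk2 by -1.02 ± 0.26 (0.00732), whereas Ifit1 (-0.46 ± 0.18, 0.208), Ifit2 (0.39 ± 0.22, 0.538) and Irf1 (-0.47 ± 0.35, 0.707) did not pass. The Ccl4 difference did not pass without 60 min (adjusted p = 0.142), without 90 min (0.108), without the DMSO plate (0.101), with DESeq2 (0.124), with the Rn45s covariate (0.793) or without the time block (0.451), and Rsad2 did not pass without the time block (0.418). Outside these, Nfkbia was lower with SeV by -1.47 ± 0.17 (3.63e-15), Tnf by -1.62 ± 0.38 (0.00278), and Ccl5, a T cell attractant, by -2.42 ± 0.37 (2.53e-08). By the rule for the largest falls, Tlr2, the receptor of bacterial lipopeptides (34 UMIs with SeV, 225 with Poly(I:C)), Relb, an NF-κB subunit (12 and 79), Erdr1 (12 and 97) and H2-Q9 (2 and 32) were also lower. In this order the NoStim wells held 34, 19, 40 and 5 UMIs of them. The genes most above Poly(I:C), namely Cep120, Zfp518a, Utp14b, Vrk1 and Tmem167b, had 31 to 49 UMIs in all with SeV and 0 to 3 with Poly(I:C). The rule asked for 2 UMIs a well in the higher group only. In the same order the NoStim wells held 6, 25, 13, 42 and 6 UMIs, and none of these genes passed between SeV and NoStim wells.

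By list, 4 of 51 antiviral effectors (Rsad2, Cmpk2, Mx1 and Oasl1), 3 of 16 chemokines (Ccl7, Ccl5 and Ccl4), 4 of 16 inflammatory mediators (Icam1, Clec4e, Cd83 and Tnf), 4 of 25 NF-κB genes (Nfkbia, Tnfaip2, Relb and Ripk2) and 3 of 13 antigen processing genes (H2-K1, Tapbp and B2m) were lower with SeV than with Poly(I:C). None of these lists had a gene that was higher. Over all genes tested, 171 of 8191 passed (2.09%), 100 of them lower with SeV. Of 21 genes in the RNA sensor and adaptor list, 1 was higher and 1 lower (Ikbke and Tbk1 were the genes called). Ifnb1 went the other way by count, with 41 UMIs with SeV and 4 with Poly(I:C), but the difference did not pass (log2 2.58 ± 0.97 SE, edgeR adjusted p = 0.189).

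Against LPS, 182 of 7792 genes passed (2.34%), 47 higher and 135 lower with SeV, and the median of all genes was 0.16. Without 120 or 150 min the count was 119 and 103, and without the DMSO, dCA or BRD-6989 plate 100, 96 and 100. Ccl4 had a median of 40 UMIs with SeV and 241 with LPS and was 6.63-fold lower with SeV (log2 -2.73 ± 0.12 SE, edgeR adjusted p = 2.31e-82); the lowest LPS well, with 168 UMIs, lay above the highest SeV well, with 122. Rsad2 (-1.92 ± 0.09, 7.51e-68), Ifit1 (-1.68 ± 0.17, 2.16e-18), Ccl7 (-2.03 ± 0.13, 1.47e-46) and Cmpk2 (-1.40 ± 0.28, 7.59e-05) were also lower. Lower with SeV were 11 of 16 chemokines, 9 of 18 inflammatory mediators, 12 of 25 NF-κB genes and 9 of 51 antiviral effectors. Of 28 immediate early and MAP kinase feedback genes 7 were lower and 1 higher. Of 20 cholesterol synthesis genes 1 was higher (Sqle). Il1b, the inflammatory cytokine, had 2 UMIs over the SeV wells and 411 over the LPS wells, Cxcl1 18 and 362, and Socs3, a feedback inhibitor of cytokine signalling, 20 and 267. Higher with SeV by the same rule were Fbxo5 (37 and 0 UMIs), Mrps22 (43 and 1), Eif2ak4 (43 and 2), Dusp6, a phosphatase of ERK (48 and 5), and Itpr1, a calcium channel of the endoplasmic reticulum (69 and 7). In this order the NoStim wells held 18, 16, 42, 63 and 36 UMIs of these genes. None of them passed between SeV and NoStim wells. Ifnb1 had 41 UMIs with SeV and 19 with LPS (log2 0.96 ± 0.90, adjusted p = 0.813).

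**Figure D4:**
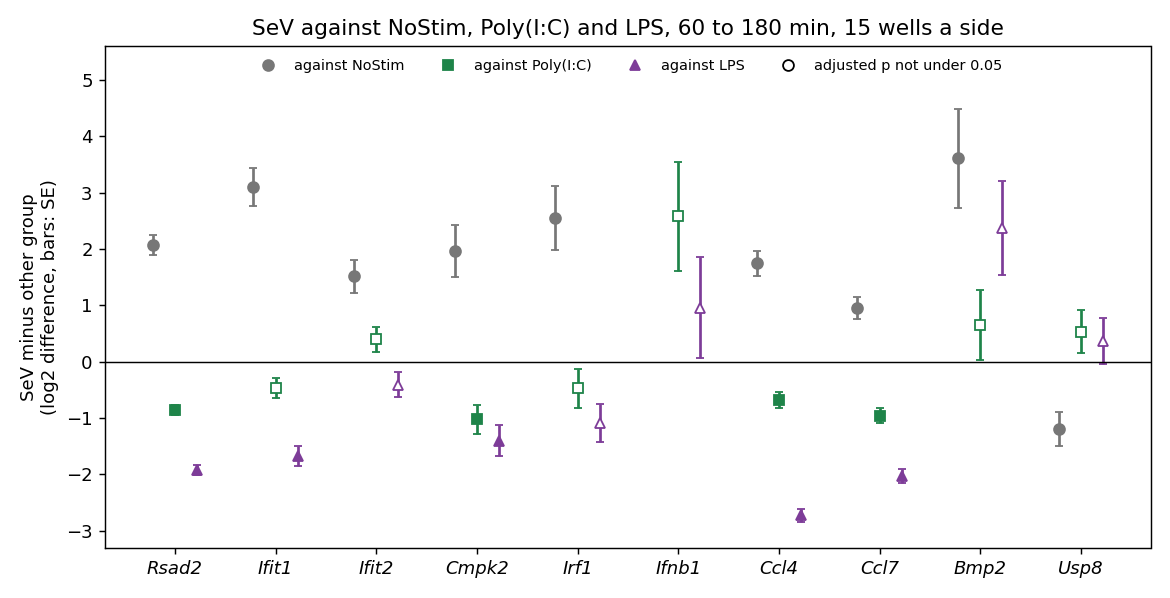
Log2 difference between SeV and NoStim, Poly(I:C) or LPS wells at 60 to 180 min (bars: SE, 15 wells a side) for the 10 genes called against NoStim; Ifnb1 against NoStim is left out because all NoStim wells were at 0. Filled symbols passed at an adjusted p under 0.05; Ccl4 stands at 1.74, -0.68 and -2.73.

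The reporters gave a second readout of the same wells. In TF-seq, each reporter carries binding sites named for a transcription factor in front of a minimal promoter and is counted by its own tag. With SeV the reporter NFkB_1 and those named for interferon regulatory factors, the interferon-β promoter and the interferon-stimulated response element rose relative to the panel. The reporters named for NF-κB subunits did not pass. They were p52_RELB_37 (log2 -0.23 ± 0.15 SE, edgeR adjusted p = 0.397) and CREL_52 (0.08 ± 0.14, 0.782). At 60 to 180 min 10 of 58 reporters passed (17.2%; edgeR quasi-likelihood test, plate and time as blocks), 8 higher and 2 lower.

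The reporter NFkB_1 changed most. On the DMSO plate it took 6.01, 11.0, 14.8, 17.5 and 15.7% of reporter counts in the SeV wells of 60, 90, 120, 150 and 180 min and 5.47, 4.45, 5.10, 9.42 and 5.17% in the NoStim wells. On the dCA plate it took 4.30, 4.56, 6.37, 9.11 and 9.98% with SeV and 3.36, 2.30, 1.47, 5.07 and 4.03% without. On the BRD-6989 plate it took 6.09, 3.65, 7.30, 7.41 and 9.98% with SeV and 3.13, 3.07, 1.85, 4.64 and 5.56% without. It was higher with SeV in all 15 pairs, although over all wells the ranges overlapped (3.65 to 17.5% with SeV, 1.47 to 9.42% without). The fitted difference was 2.26-fold (log2 1.18 ± 0.16 SE, edgeR adjusted p = 1.13e-08).

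Of the interferon-pathway reporters, IRF1_55 (log2 0.74 ± 0.15 SE, edgeR adjusted p = 7.25e-05), IFNB1_44 (0.69 ± 0.14, 5.75e-05), IRF3_10 (0.62 ± 0.13, 1.07e-04), ISRE_54 (0.54 ± 0.14, 0.00278) and IRF3.7_45 (0.35 ± 0.11, 0.0158) were higher. So was STAT4_35, named for another factor (0.49 ± 0.15, 0.00875). Each was higher in 10 to 12 of 15 pairs. Without 180 min 6 reporters passed, and IRF1_55 (adjusted p = 0.0941), ISRE_54 (0.279), STAT4_35 (0.390) and IRF3.7_45 (0.112) did not. ISRE_54 was also lost without 150 min (0.148), without the DMSO plate (0.0711) and without the dCA plate (0.127), STAT4_35 without the DMSO plate (0.117) and without the BRD-6989 plate (0.119), and IRF3.7_45 without 90 min (0.0739), without 120 min (0.148), without the dCA plate (0.320) and without the BRD-6989 plate (0.134). CLOCK_30 (-0.40 ± 0.12, 0.00702) and MAF_36 (-0.40 ± 0.13, 0.0200) were lower. Their direction depends on the scaling, since both were higher with unscaled counts (0.20 and 0.22) and per UMI (0.13 and 0.18). CLOCK_30 was lost without the BRD-6989 plate (adjusted p = 0.0556), and MAF_36 without 90 min (0.0603), 150 min (0.0893), the DMSO plate (0.330) or the dCA plate (0.125). minP_58, by its name a minimal promoter, did not differ detectably (0.09 ± 0.13, 0.758).

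**Figure D5:**
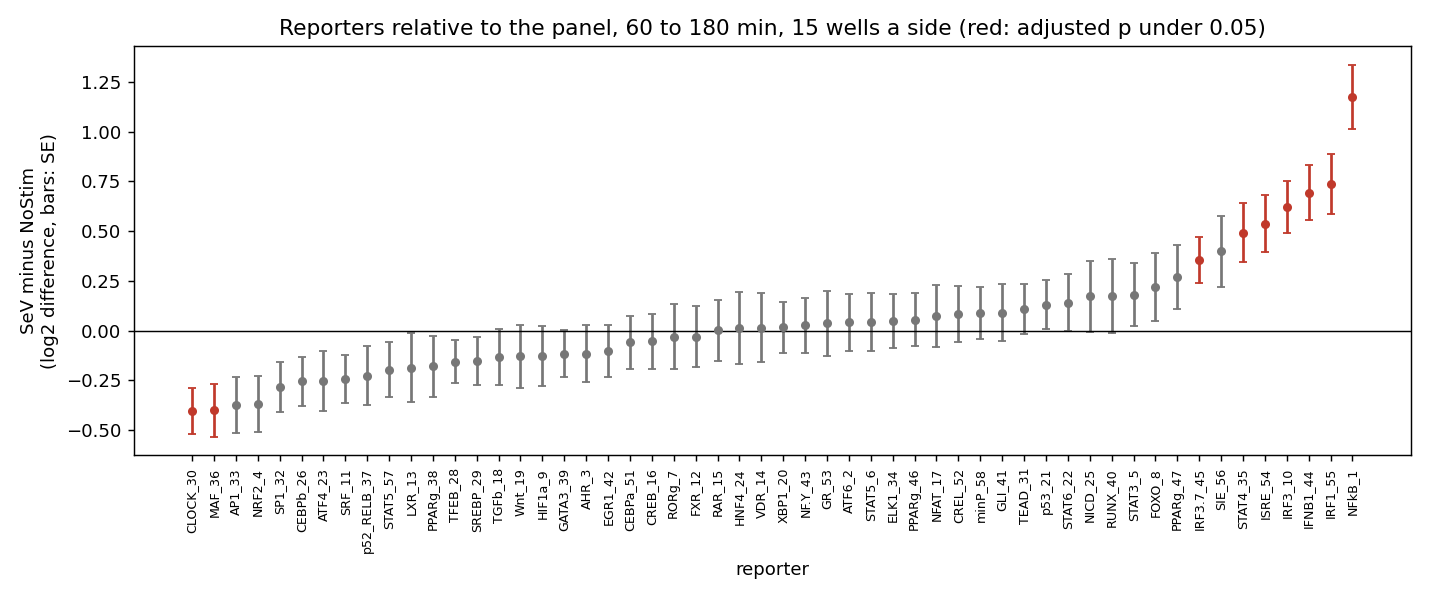
Log2 difference between SeV and NoStim wells at 60 to 180 min for the reporters given here, relative to the panel (TMM scaling; bars: SE; 15 wells a side), ordered by size. Red points passed at an adjusted p under 0.05 and run from CLOCK_30 and MAF_36 at -0.40 to NFkB_1 at 1.18.

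The reporter total itself rose with SeV. It was 1060 ± 244 counts in NoStim and 1846 ± 694 in SeV wells at 60 to 180 min (mean ± SD, n = 15 a side), a difference of 786 ± 688 and higher in 15 of 15 pairs (exact 2-sided permutation of pair signs, p = 6.10e-05, the smallest these 32768 sign patterns can give, adjusted p = 2.44e-04 over 4 library measures). The summed count of every one of the 58 reporters was higher with SeV, by 1.15 to 4.2 times with a median of 1.59. Without any scaling 54 reporters passed, all higher, and scaled to the UMI total of the well 41 passed, all higher; the shift of the median reporter was 0.65 and 0.58. The differences above are therefore relative to a panel that rose as a whole.

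The effect on 11 of 58 reporters changed with time over the 8 times (19%). It grew per hour by 0.62 ± 0.11 log2 units for NFkB_1 (edgeR adjusted p = 1.53e-06), 0.54 ± 0.09 for ISRE_54 (1.53e-06), 0.46 ± 0.11 for IFNB1_44 (9.53e-04), 0.42 ± 0.10 for IRF3_10 (4.12e-04) and 0.41 ± 0.12 for IRF1_55 (0.00526). It fell relative to the panel for AP1_33, CLOCK_30, NRF2_4, ATF4_23 and PPARg_38, by -0.31 to -0.38 per hour, and turned positive for all 5 with reporter counts per UMI. Relative to the panel, no reporter passed a test of the SeV effect between plates (0 of 58, 0%, by edgeR; 4 at an unadjusted p under 0.05, and 0 by DESeq2), a test added after the data were seen. For NFkB_1 the dCA minus DMSO difference was -0.12 ± 0.40 and the BRD-6989 minus DMSO difference -0.30 ± 0.40. The panel as a whole rose by different amounts on the plates. At 180 min the reporter total was 716 counts without and 2600 with SeV on the DMSO plate, 1316 and 2285 on the dCA plate and 1260 and 2054 on the BRD-6989 plate. Without scaling, the median reporter's SeV effect differed from that on the DMSO plate by a log2 difference of -0.59 for dCA and -0.65 for BRD-6989, and 1 reporter passed the test between plates; per UMI the medians were -0.59 and -0.58 and none passed. The difference of the medians themselves was not tested.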

How the data were processed

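Each well was a polyA RNA library read by 3' digital gene expression and TF-seq. The deposited gene tables hold UMI counts and total read counts per gene and well, and the deposited reporter table holds counts per reporter. The reporter table that the authors call normalized is identical to the count table, so whether it was scaled is not known. The submitters' processing notes name mm10, BWA and edgeR without role or version. Wells were grouped by their titles. UMI counts without Rn45s were scaled by TMM and tested with edgeR 4.0.16 (R 4.3.3, quasi-likelihood, Benjamini-Hochberg), with plate and time as blocks, where a gene averaged 0.5 UMI a well or more, or a reporter 5 counts or more; an adjusted p under 0.05 was called. DESeq2 1.42.0, total read counts, RLE factors, other filters, other blocks, an Rn45s covariate and leaving out wells, times and plates were alternatives. CPM are UMI counts scaled to a library of 1e+06 without Rn45s. Wells of the same plate row and column share time and stimulus across plates, so the block stands for plate and time; the labels give no replicate numbers beyond that. Named genes were a fixed set of 25, every listed gene called at 60 to 180 min, the largest rises and falls with at least 2 UMIs a well in the higher group, and the 5 smallest p-values of the time and plate tests. Members and lists were chosen with earlier results of these data known, and the tests at single times and of reporters between plates were added after the data were seen. The code was tested on simulated data. The series text speaks of TLR ligands over 0 to 4 h, while the labels give 15 to 180 min. No gene name begins with mt-, so a mitochondrial share was not computed. Some reporters and genes are counted in the totals but not reported here.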

Additional observations from a re-analysis of the deposited data

Results flagged for a closer look

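Each gene's 8 wells of 1 plate and 1 stimulus were checked for a single well far from the others, and in 21 of 84 such groups the highest well stood apart. Chance gives about 1 in 20 groups, and since the times differ within a group, a response that grows with time also sets its last well apart. Most of these wells were the 180 min wells. For Rsad2 they were the SeV wells of the DMSO (13820 CPM), dCA (10300 CPM) and BRD-6989 plates (7548 CPM). The dCA SeV well stood apart for Ccl4 (2875 CPM), Ccl7 (2758 CPM), Irf1 (586.8 CPM), Cmpk2 (821.5 CPM) and Bmp2 (234.7 CPM). The BRD-6989 SeV well did so for Ifit1 (2400 CPM), Ccl7 (2770 CPM) and Cmpk2 (523.6 CPM), and the DMSO SeV well for Cmpk2 (2286 CPM).

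Unstimulated wells stood apart at 180 min as well. They were the DMSO well for Irf1 (104.4 CPM), Cmpk2 (339.4 CPM) and Usp8 (1828 CPM), the dCA well for Usp8 (1712 CPM) and the BRD-6989 well for Irf1 (198.3 CPM) and Bmp2 (88.14 CPM). At other times they were the DMSO well at 45 min for Ifit1 (293.4 CPM), the BRD-6989 well at 90 min for Ifit2 (194 CPM) and the dCA well at 30 min for Bmp2 (27.63 CPM, a single UMI).

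The SeV effect on Rsad2 differed between the dCA and DMSO plates by a log2 difference of -1.78 in edgeR's test of the difference itself (adjusted p = 0.00477). This call was lost in 8 of 14 alternative settings, among them without 60, 90, 150 or 180 min (adjusted p = 0.2 to 0.766), without the time block (0.474) and with DESeq2 (1).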

How the results depend on the processing

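UMI totals of 24206 to 62376 a well limit what low genes can show. The setting without the replicate block dropped time and kept plate. Counts of called genes at 60 to 180 min were 14 without the replicate block and 8 with a replicate block of 15 plate and time pairs (Ifnb1 and Bmp2 lost), against 10 as reported. They were 2 with total read counts, 18 with the Rn45s covariate, and 5 to 12 leaving out a well, time or plate. Alternatives at single times, of reporters between plates and others listed as added were chosen after seeing the data.

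Within plates DESeq2 called 84 (DMSO), 96 (dCA) and 92 (BRD-6989), and total reads 0 within the DMSO and BRD-6989 plates. RLE factors, Rn45s kept in the library sizes, no replicate block and the Rn45s covariate each gave 2 within the dCA plate. Leaving out a time gave 1 to 4 (DMSO), 0 to 4 (dCA) and 0 to 6 (BRD-6989). Between plates the count was 0 with total reads, DESeq2, a filter of 1 UMI or no replicate block, 2 with a filter of 0.2 UMI, and 0 to 1 leaving out a time or plate. At 15 to 45 min DESeq2 gave 5, Rn45s kept 1 and leaving out a time or plate 0 to 1. For the change with time the counts were 2 (total reads), 17 (DESeq2), 4 (filter of 1 UMI), 13 (Rn45s covariate), 3 (late minus early) and 3 to 13 (leaving out). Against Poly(I:C) they were 92 (total reads), 257 (DESeq2; 142 higher, 115 lower), 33 (Rn45s covariate) and 64 to 140 (leaving out), and against LPS 96 to 186 (leaving out). At single times total reads gave 1, 1, 0, 1, 0, 0, 2 and 3 from 15 to 180 min, and a filter of 1 UMI 0 at 45 min, 1 at 60 min and 4 at 150 min. Reporters at 60 to 180 min numbered 54 unscaled, 41 per UMI and 6 to 15 leaving out; for the change with time 17 with library size only, 36 unscaled, 30 per UMI and 5 to 12 leaving out; between plates 1 unscaled. With RLE factors the reporter split was 8 higher and 3 lower, and with library size only 6 and 7. The reporter total differed by 580.8 to 928.1 leaving out a time or plate.

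Directions turned as follows, in values that had not passed except for the reporters. With total reads Atf3 was 0.0501, Ifit3 -0.0741 and Irf7 -0.0429. Over all 8 times Ifit3 was -0.0758, and over 90 to 180 min Nfkbiz was -0.0557. Leaving out a well, time or plate, Atf3 ranged from -0.68 to 0.10 (turned without the NoStim DMSO 120 min well), Ddx58 from -0.0183 to 1.07 (dCA plate), Dhx58 from -0.18 to 0.63 (SeV dCA 60 min well, SeV DMSO 180 min well or 180 min), Ifit3 from -0.17 to 1.21 (DMSO plate, 150 or 180 min), Nfkbiz from -0.23 to 0.93 (DMSO plate or 60 min), Tnfaip3 from -1.24 to 0.20 (BRD-6989 plate) and the Rsad2 difference of BRD-6989 minus DMSO from -1.14 to 0.30 (60 min). Without the replicate block the last was 0.21. CLOCK_30 and MAF_36 were 0.20 and 0.22 unscaled and 0.13 and 0.18 per UMI. The change with time, unscaled, was 0.0461 for CLOCK_30, 0.00675 for AP1_33 and 0.0411 for PPARg_38, and per UMI 0.0107 for NRF2_4, 0.0137 for ATF4_23, 0.0617 for CLOCK_30, 0.0317 for AP1_33 and 0.0689 for PPARg_38. Leaving out a time, the difference in UMI total ranged from -9045 to 7674 and that without Rn45s from -2272 to 5553, negative without 90 or 150 min. The causes were not tested.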
